A study of Drosophila melanogaster with 2 samples.

Results

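Sharp borders are the places where a contact domain ends and the next one begins after a gap of at most 2 kb. They were taken from a list of 2126 contact domains in Kc167 cells, sorted along each chromosome arm, in which 2120 pairs of neighbours share an arm. Of these pairs, 786 (37.1%) had a gap of 0 to 2000 bp and are the borders described here. The gap itself chose them, so gap sizes and the number of borders are given as a description with no test. Another 862 pairs lay 2.5 to 10 kb apart and 472 lay over 10 kb apart.

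Kc167 is a cultured line from Drosophila melanogaster embryos. Both samples are untreated cells of this line grown at 25 °C, called primary and replicate in the labels, and no other genotype or treatment was compared. They were fixed with 1% paraformaldehyde and assayed by tethered Hi-C, in which DpnII-cut chromatin is ligated while held on beads and the joined fragments are sequenced to read which positions touch. The authors combined both samples into 1 domain list and 1 loop list on the dm3 build. No value therefore has a spread between samples, and the read depth behind a border is unknown. No expression values were analysed here against which the cell line could be checked.

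A contact domain is a stretch of chromatin that touches itself more often than its surroundings, and its border is where that preference changes sides. In flies, domain borders are known to lie often at active genes and to bind insulator proteins such as BEAF-32 and CP190. A loop is a pair of positions, its anchors, that touch more often than the sequence around them. A loop within a domain stays on one side of a border, and a loop across a border brings chromatin of both domains together. The annotation at hand is of another genome build, so no gene or sequence is assigned to the borders.

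No listed gap was 0. The files do not state whether a listed domain end is the start or the end of its last position step, so a listed gap of 1 step may stand for domains that touch. The smallest listed gap was 500 bp, present at 160 borders (20.4% of the 786), and 246 borders (31.3%) had a gap of 1000 bp, 164 (20.9%) of 1500 bp and 216 (27.5%) of 2000 bp. The numbers then dropped to 93 pairs at 2500 bp and 113 at 3000 bp. Gaps of whole kilobases were thus more frequent than the gaps on either side of them. At 391 borders (49.7%) both facing domain ends lay on multiples of 1 kb, where only gaps of 1000 bp (194) and 2000 bp (197) are possible. At 324 borders only 1 of the facing ends did, which by arithmetic gives gaps of 500 or 1500 bp.

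**Figure D1:**
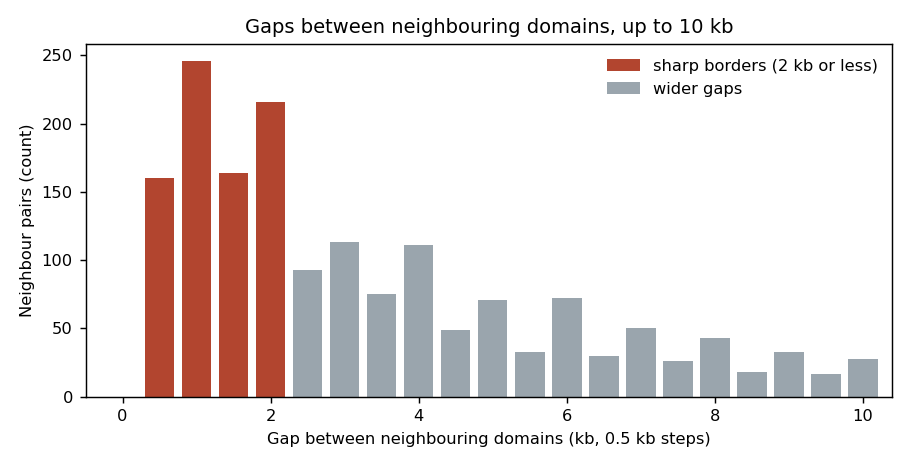
The bars count neighbour pairs (vertical axis) by the gap between their domains in kb (horizontal axis), with the 786 sharp borders in red and wider gaps up to 10 kb in grey. No listed gap is 0, the highest bar is the 246 pairs at 1 kb, and bars at whole kilobases stand above their neighbours.

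The gap was tied to the multiples on which domain ends lay. The position step of a domain is called here the largest of 5, 2, 1 and 0.5 kb that divides both its start and its end, and 178, 505, 634 and 809 domains had these steps. The step is read from the listed positions alone and is not a stated calling resolution. A domain placed on a finer grid can have both ends on coarser multiples by coincidence. The shortest domain was 6 kb on the 0.5, 1 and 2 kb steps and 10 kb on the 5 kb step. By definition, the gap of 2 domains with the same step is a multiple of that step. With no gap of 0 in the list, the 13 pairs that both had the 5 kb step could not be sharp, and the 120 pairs that both had the 2 kb step only at exactly 2000 bp (32 pairs). Sharp borders made up 51.7% of pairs whose coarser domain had the 0.5 kb step (169 of 327, exact 95% interval 46.1 to 57.2%). The share was 44.7% for 1 kb (286 of 640), 32.3% for 2 kb (262 of 812) and 20.2% for 5 kb (69 of 341, 16.1 to 24.9%). Domains with coarser steps were also longer, with medians of 13, 25, 50 and 160 kb from the finest to the coarsest step. The part of the position step in the results below was not tested, and values within each step are given beside most of those it touches. Intervals here and below are exact binomial (Clopper-Pearson) intervals unless named otherwise, and cover counting error within 1 pooled map only.

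Counted in steps of the coarser domain, the order turned round, but a limit of 1 step widens from 0.5 to 5 kb along the classes. The rise in the shares below is in part set by that limit. In bp, the median gap rose with the step, at 2, 2.5, 4 and 6.5 kb from the finest to the coarsest. A gap of at most 1 step was found for 15.6% of pairs on the 0.5 kb step, 22.5% on the 1 kb step, 32.3% on the 2 kb step and 44.6% on the 5 kb step. In all, 609 pairs lay within 1 coarser step, of which 526 were sharp borders and 83 were not, and 260 sharp borders had a gap above 1 step.

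Just inside the limit, the 216 borders with a gap of 2000 bp had a median shorter side of 16 kb, a median longer side of 34.5 kb and a median lower corner score of 1.17. Just outside it, the 93 pairs at 2500 bp had medians of 12 kb, 36 kb and 1.18, and the 113 pairs at 3000 bp 19 kb, 40 kb and 1.24. At 197 of the 216 borders both facing ends lay on multiples of 1 kb, which a gap of 2500 bp does not allow. The pairs at 3000 bp are thus the closer comparison. Corner score is the name used here for the authors' own value per domain, which they list only as score, with no stated scale or definition.

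Sharp borders joined domains into chains. Linking every domain to the next across a sharp border gave 480 chains of 2 or more domains, which held 1266 of the 2126 domains (59.5%), and left 860 single domains (40.5%). There were 283 chains of 2 domains, 127 of 3, 44 of 4, 16 of 5, 7 of 6 and 3 of 7. The chains covered 42.3 Mb in all, with a median of 64 kb (quartiles 38 and 117 kb) and a range of 14.5 to 618 kb. The 197 chains of 3 or more domains held 700 domains (32.9%).

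The 3 chains of 7 domains lay on 3R, 3L and 2R. The chain on 3R ran over 304 kb from 20146001 to 20450000. Its second domain was 156 kb long, the other 6 were 10.5 to 39 kb long, and scores ranged from 0.795 to 1.80. The chain on 3L ran over 210 kb from 6939001 to 7149000 and held domains of 9, 8, 14.5, 14.5, 96, 31 and 29 kb. The first 4 of these were the shortest, and the third and the fourth were equal in length with scores of 1.46 and 1.73. The chain on 2R ran over 200.5 kb from 12029501 to 12230000, with 6 domains of 6 to 21.5 kb followed by 1 of 120 kb. Each of the 3 chains thus held 1 domain well above the rest in length, in the second, the fifth and the last place.

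Next in number of domains came the 7 chains of 6, of which the 2 covering most sequence are described. They lay on X from 13639501 to 13888000 (248.5 kb) and on 3L from 630501 to 825000 (194.5 kb). The chain on X ended in a 148 kb domain after 5 domains of 9 to 28 kb. In the chain on 3L the first domain had a score of 1.90 and the second, 8 kb long, a score of 0.860, while lengths then increased from each domain to the next up to 76 kb. No loop under 1 Mb reached into the 3 chains of 7 domains. Among the chains of 6, 1 loop reached into each of these 2 and none into the rest, which covered 94.5 to 178 kb. The chain that covered most sequence was a pair on 3R, a 16 kb domain and a 600 kb domain between 11172001 and 11790000.

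The share of sharp borders was similar after a sharp border and after a wider gap. The border that followed was sharp in 306 of 786 cases after a sharp border (38.9%, interval 35.5 to 42.4%) and in 479 of 1328 after a wider gap (36.1%, 33.5 to 38.7%), and the intervals overlapped. Where the following pair had a coarser step of 5 kb, the shares were 28.8% (30 of 104, 20.4 to 38.6%) and 16.6% (39 of 235, 12.1 to 22.0%), and on the 0.5 kb step they lay the other way, at 47.1% (57 of 121) and 54.4% (111 of 204). These differences were not tested.

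Domains with sharp borders were shorter than others. Among domains with a neighbour on each side, the 306 with a sharp border at both ends had a median length of 15.25 kb (exact order-statistic interval 14 to 17 kb). The 959 with 1 sharp border had a median of 18.5 kb (17.5 to 20 kb) and the 849 with none a median of 29 kb (26 to 32 kb). Domains over 100 kb made up 2.29% (7 domains), 6.88% (66) and 18.6% (158) of these groups. The same order held within each of the 3 finer position steps: 11.75, 12.5 and 14 kb on the 0.5 kb step, 21, 24 and 27 kb on the 1 kb step, and 32, 47 and 62 kb on the 2 kb step, from 2 sharp borders to none.

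Corner scores had the same order over all domains, with medians of 1.26 for 2 sharp borders, 1.30 for 1 and 1.34 for none. Within a step they did not keep it: on the 0.5 kb step the medians were 1.27, 1.24 and 1.28, on the 1 kb step 1.22, 1.33 and 1.30, and on the 2 kb step 1.27, 1.36 and 1.35. On the 5 kb step the order was reversed, with 1.51 (n = 7), 1.47 (n = 55) and 1.39 (n = 114). Over all steps together, the authors' upSign score, another of their values per domain, was 0.753, 0.769 and 0.807. Their loSign score was 0.748, 0.771 and 0.803, and neither was split by step for these groups. Across all 2126 domains the corner score and length had a positive rank correlation (Spearman rho = 0.43, domains of 1 map, no test), so these medians and the lengths above are not independent.

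The domains facing each other across a sharp border were usually unlike in length. The longer side exceeded the shorter by a median of 2.14-fold (order-statistic interval 2.03 to 2.26, quartiles 1.43 and 4), with a median of 12 kb for the shorter and 29.5 kb for the longer side. Lengths were within 2-fold at 365 of 786 borders (46.4%, interval 42.9 to just under 50%), against a background of 43.5% over all 2120 pairs. Pairs 2.5 to 10 kb apart were within 2-fold in 42.1% of cases and pairs over 10 kb apart in 41.1%. Over all steps, left and right lengths were not ranked together (Spearman rho = -0.07 over the 786 borders, which share domains and 1 map). Within steps, rho at sharp borders was -0.06 on 0.5 kb, -0.02 on 1 kb, -0.39 on 2 kb (n = 262) and -0.21 on 5 kb (n = 69). On the 2 and 5 kb steps it was -0.33 and -0.61 in pairs 2.5 to 10 kb apart. In pairs over 10 kb apart it was -0.09 and -0.52.

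The higher share at sharp borders was absent within most position steps. Pairs with a coarser step of 0.5 kb were within 2-fold in 74.0% of sharp borders (n = 169), 79.4% of pairs 2.5 to 10 kb apart (n = 102) and 76.8% of pairs over 10 kb apart (n = 56). On the 1 kb step the shares were 50.7, 55.8 and 56.1%, and on the 2 kb step 30.2, 33.3 and 38.3%. Only on the 5 kb step was the share at sharp borders the highest of the 3, with 23.2% (n = 69), 17.8% (n = 163) and 11.9% (n = 109).

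**Figure D2:**
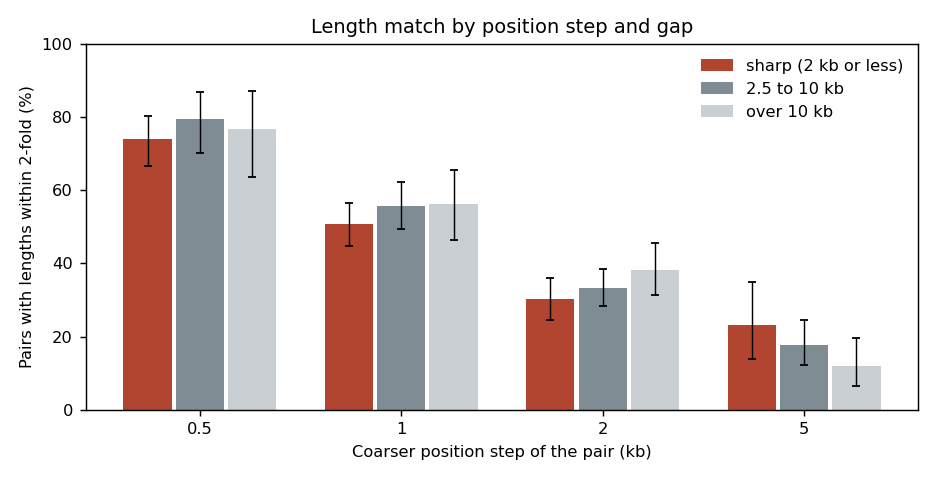
Bars give the share of neighbour pairs whose lengths lie within 2-fold (vertical axis, percent), grouped by the coarser position step of the pair in kb (horizontal axis) and coloured by gap, with exact 95% binomial intervals. The share falls from 74.0% to 23.2% at sharp borders from the finest to the coarsest step, and the intervals of the 3 gap classes overlap within each step.

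Very unequal sides were found at 51 sharp borders (6.49%), where the lengths differed by more than 10-fold. In wider pairs the share was 12.7%, but the order was not the same in each position step. On the 2 kb step it was 10.7% of sharp borders (28 of 262), 10.6% of pairs 2.5 to 10 kb apart and 5.70% of pairs over 10 kb apart, on the 1 kb step 1.75, 0.417 and 2.63%, and on the 5 kb step 26.1% (18 of 69), 45.4 and 38.5%. There were none on the 0.5 kb step. The median sides of the 51 were 9.5 and 152 kb, and the longer one lay on the right at 35 and on the left at 16. The largest fold was 40, on X, where a 13.5 kb domain ending at 11923000 faced a 540 kb domain starting at 11925001. Next came 37.5-fold on 3R (16 kb ending at 11188000, 600 kb from 11190001) and 31.8-fold on 3R (10 kb ending at 19183500, 318 kb from 19184001). They were followed by 30.8-fold on 2L (6 kb ending at 10009500, 185 kb from 10010001) and 26.3-fold on 3R (9.5 kb ending at 8548500, 250 kb from 8550001). In all 5 the long domain was the right one. Over all sharp borders the right side was the longer at 424 and the left at 347, and 15 had equal sides. In wider pairs the left side was the longer at 699 and the right at 616, and neither split was tested. The right excess at sharp borders came to 50 against 18 on the 5 kb step, 146 against 114 on the 2 kb step and 149 against 132 on the 1 kb step, with 79 against 83 on the 0.5 kb step. In pairs 2.5 to 10 kb apart the left side was the longer at 462 and the right at 386, and over 10 kb apart at 237 and 230. If a listed end is the start of its last step, the gap includes a step of the left domain but none of the right. The part of this in the splits by side was not tested.

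Long domains rarely met at a sharp border. Both sides exceeded 50 kb at 5 borders (0.636%), against 72 of 1334 wider pairs (5.40%), while both were at most 20 kb at 258 (32.8%), against 241 (18.1%). Within steps, both sides exceeded 50 kb at 0.382% of sharp borders on the 2 kb step, against 6.44 and 8.81% of pairs 2.5 to 10 kb and over 10 kb apart, and at 5.80% on the 5 kb step, against 9.20 and 11.9%. Pairs with both domains on the 5 kb step could not be sharp, and those with both on the 2 kb step only at 2000 bp, as set out above. They were kept in these groups, so the gap limit fixes some of the difference in advance. How much was not tested. The 5 borders with both sides over 50 kb were also those with the longest shorter side. On 2R a 90 kb domain ended at 8930000 and an 86 kb domain began at 8932001, with scores of 1.55 and 1.82. On X a 74 kb domain ending at 12654000 met a 325 kb domain, and a 58 kb domain ending at 17376000 met a 62 kb domain. On 3L a 60 kb domain ending at 5805000 met one of 55 kb, with scores of 1.74 and 1.73. On 3R a 52 kb domain ending at 23118000 met one of 225 kb. Of these 5, 4 had a gap of 2000 bp and the border on X next to the 325 kb domain had one of 1000 bp.

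Over all steps together, corner scores matched about as closely across a sharp border as across a wider gap. Their median absolute difference was 0.243 at sharp borders (order-statistic interval 0.223 to 0.260), 0.244 in pairs 2.5 to 10 kb apart and 0.253 in pairs over 10 kb apart. In the same order it was 0.205, 0.236 and 0.232 on the 0.5 kb step and 0.244, 0.235 and 0.286 on 1 kb. On 2 kb it was 0.270, 0.250 and 0.248, and on 5 kb 0.307, 0.277 and 0.259. The order thus changed with the step, and the intervals of the gap classes overlapped within each step. The rank correlation of the facing scores was 0.15, 0.17 and 0.19 in the same order (n = 786, 862 and 472), over pairs that share domains and a map. The longer side had the higher score at 531 of 771 sharp borders with unequal sides (68.9%), and in 64.0% of 1315 wider pairs.

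Within chains of 3 or more domains, the median score difference was 0.241 for 503 adjoining pairs (rho = 0.19) and 0.272 for 306 pairs with 1 domain between (rho = 0.01). Lengths were within 2-fold in 43.1% of adjoining pairs and 49.7% of the pairs 1 further apart. These pairs share domains and were not split by step, no interval was computed, and pairs 1 further apart were not counted outside chains. The middle domain of 306 runs of 3 was the shortest in 116 (37.9%) and the longest in 89 (29.1%). These middle domains are the 306 with 2 sharp borders described above, and the shares over all runs of 3 domains were not counted. None of these contrasts was tested.

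Borders between 2 high-scoring domains were led by 3R, where a 74 kb domain ending at 13620000 (score 1.82) met a 15 kb domain from 13620501 (1.88) after 500 bp. The same 74 kb domain met a 35 kb domain of score 1.77 at its other end, so both its borders were among the 5 with the highest lower score. The others were on 2L (220 kb ending at 6322000 and 14 kb from 6324001, scores 1.88 and 1.78), on 3R (26 kb ending at 17202000 and 200 kb, 1.89 and 1.74) and the 3L border at 5805000 named above. The widest score difference, 1.69, lay on chromosome 4 between a 36.5 kb domain ending at 716500 (score 0.0553) and an 84 kb domain (1.74). On 2L a single 31 kb domain from 19133001 to 19164000 with a score of 0.0464 made both the next differences, 1.10 on its left and 1.08 on its right. The remaining ones were 1.05 on X (border at 6485000) and 1.04 on 3L (border at 647500, the first of the 6-domain chain).

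**Figure D3:**
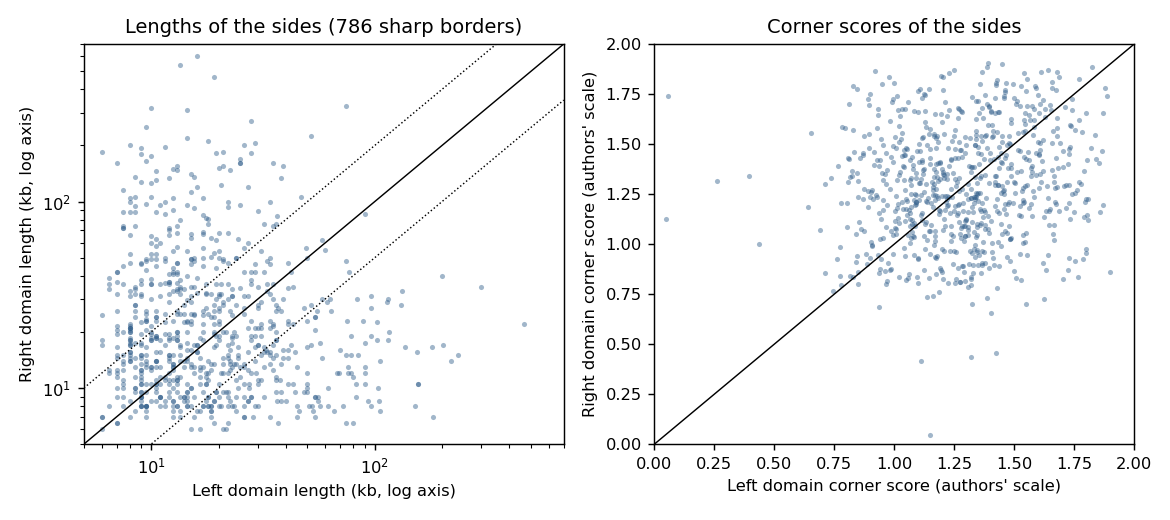
Each point is 1 of the 786 sharp borders. The left panel sets the length of the right domain against that of the left domain (kb, log axes, solid line for equal lengths and dotted lines for 2-fold), and the right panel does so for the authors' corner score (no unit). Lengths show an L-shaped cloud with few points where both sides exceed 50 kb, and scores a loose cloud around the line of equality.

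Sharp borders were unevenly shared among the arms. They made up 42.8% of neighbour pairs on 2R (189 of 442, interval 38.1 to 47.5%), 40.6% on 3L (165 of 406), 38.1% on 3R (193 of 506), 33.9% on X (130 of 383) and 28.7% on 2L (104 of 363, 24.1 to 33.6%). Chromosome 4 had 5 of 20 (8.66 to 49.1%). The interval of 2L did not overlap those of 2R, 3L (35.8 to 45.6%) and 3R (33.9 to 42.5%). The share on 2L was also lower than on 2R within each position step: 44.1 and 58.3% on 0.5 kb, 39.1 and 47.6% on 1 kb, 24.5 and 37.7% on 2 kb, and 13.9 and 21.1% on 5 kb. Within each step, however, the intervals of 2L and 2R overlapped. The arms between these 2 did not differ from their neighbours in order beyond their intervals. In number per length, 2R had 8.94 sharp borders per Mb and 2L 4.52. Sides were within 2-fold at 35.6% of sharp borders on 2L and 51.9% on 2R. On 2L, 9.37% of pairs had a coarser step of 0.5 kb, against 19.0% on 2R. Within steps the shares for 2L and 2R were 80% (12 of 15) and 71.4% (35 of 49) on 0.5 kb, 44.2 and 57.1% on 1 kb, 13.9 and 32.8% on 2 kb, and 1 of 10 and 4 of 12 borders on 5 kb. Chains of 7 occurred on 2R, 3L and 3R, and the longest chain on 2L held 4 domains.

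Along the large arms, sharp borders were fewest next to the centromere. The end at the centromere was taken as the high-coordinate end of 2L, 3L and X and the low-coordinate end of 2R and 3R. With each arm cut into 10 equal parts, 22.3% of pairs were sharp in the part at that end over the 5 large arms (29 of 130), and 35.8 to 41.5% in the other parts. This part had the lowest share of its arm on 3L, 3R and X, and the second lowest on 2L and 2R. In the 2 Mb at the centromere, 23 of 102 pairs were sharp (22.5%, 14.9 to 31.9%), against 91 of 217 in the 2 Mb at the other end (41.9%, 35.3 to 48.8%). By arm these were 5 of 19 and 21 of 44 on 2L, 6 of 19 and 24 of 57 on 2R, 0 of 8 and 20 of 46 on 3L, 10 of 44 and 18 of 42 on 3R, and 2 of 12 and 8 of 28 on X. All 5 arms had a lower share at the centromere than at the other end. Between the ends, 667 of 1781 pairs were sharp (37.5%), and on 2L this stretch (78 of 300) had no higher share than the centromere end (5 of 19).

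Pairs at the centromere end more often had a coarser step of 5 kb, in 27.5% of pairs against 12.9% at the other end. Gaps over 50 kb made up 14.7% against 3.69%. On the 0.5 kb step the shares of sharp borders were alike (7 of 14 and 22 of 42). On the 2 kb step they were 0 of 18 and 29 of 80, on the 1 kb step 14 of 42 and 32 of 67, and on the 5 kb step 2 of 28 and 8 of 28. The difference between the ends was not tested.

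**Figure D4:**
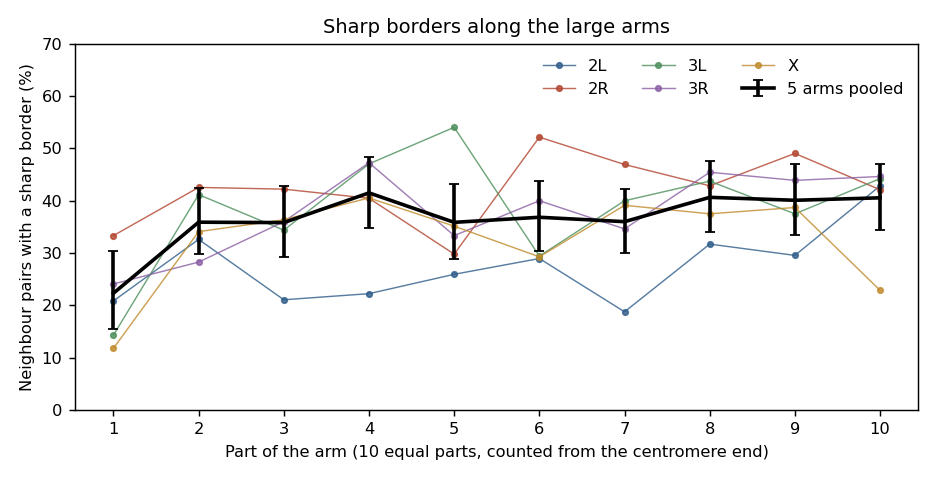
Lines give the share of neighbour pairs with a sharp border (vertical axis, percent) by part of the arm, 10 equal parts counted from the centromere end (horizontal axis), in colour for each large arm and in black for the 5 pooled, with exact 95% binomial intervals. The pooled share is 22.3% in the first part and 35.8 to 41.5% in the rest, and 2L lies under the pooled line in most parts.

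The number of sharp borders varied from stretch to stretch. The 117 full windows of 1 Mb held a median of 6 (quartiles 4 and 9), and 4 windows held none. The window with most was 2R 12000001 to 13000000, with 17 sharp borders among 25 pairs, and it contained the 7-domain chain and a 6-domain chain from 12559001 to 12737000. It was followed by 3R 19000001 to 20000000 (16 of 26) and 3L 16000001 to 17000000 (15 of 28). The median distance from a sharp border to the next on the same arm was 65.5 kb (quartiles 21 and 185 kb). The longest stretches without one were 1734 kb on 2L (16879001 to 18612500), with 9 wider borders inside, and 1435 kb on X (19760001 to 21194500), with 15.

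Few loops crossed a sharp border. Among the 113 loops under 1 Mb, 9 (7.96%) had the middle of a sharp border between the midpoints of their anchors. They crossed 10 of 786 borders (1.27%, interval 0.612 to 2.33%), the same as the background of 1.27% over all 2120 pairs. Pairs 2.5 to 10 kb apart were crossed in 1.16% of cases and pairs over 10 kb apart in 1.48%. Of the 9 loops, 7 crossed 1 sharp border, 1 crossed 2 and 1 crossed 3, and their spans were 28 to 213.5 kb.

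The loop with 3 crossings lay inside the 6-domain chain on 3L described above. Its anchors, 673001 to 674001 and 748001 to 749501, were 75.2 kb apart. Their midpoints lay in the third domain and in the 1000 bp gap before the sixth, and the second anchor reached into the sixth domain. It thus passed the borders at 680000 and 710000 and ended on the border at 748000. The loop with 2 crossings joined 3R 21089501 to 21090501 with 21303001 to 21304001. It began 0.499 kb inside the domain that ends at 21090500 and passed the sharp borders at 21090500 and 21118000 and 2 wider gaps.

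The border crossed most often was on chromosome 4, between a 37 kb domain ending at 198000 and a 27 kb domain starting at 200001. Its 3 loops shared the anchor 152001 to 154001 and reached to 200001 to 202001, 212001 to 214001 and 226001 to 228001. Since they share an anchor they are not independent. The other crossed borders had 1 loop each: 2L 15037000, 2R 11461000, 3R 2584000 and X 796000. On X the loop joined 737001 to 740001, at the start of the 58 kb domain left of the border, with 903001 to 906001, 166 kb away.

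At 3 of the crossed borders the loop hardly passed the middle. The anchor 2584001 to 2586001 on 3R filled the 2000 bp gap and its midpoint lay 0.001 kb beyond the middle, which is the 1 bp by which listed anchors and listed domains differ in their grid, that on 3L at 748001 lay 0.251 kb beyond and that on 2L at 15037001 lay 0.751 kb beyond. With anchors moved down by 1 bp, 9 borders were crossed by 8 loops. With both domain ends required between the anchor midpoints, 8 borders were crossed by 8 loops. The 7 loops over 1 Mb passed 2 to 93 sharp borders each, which were 16.9 to 43.1% of the borders in their span.

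Loop anchors were found near few sharp borders. Of the 786 borders, 16 had an anchor midpoint within 5 kb of a facing domain end (2.04%, interval 1.17 to 3.28%), against 2.83% over all pairs. The share was 1.97% in pairs 2.5 to 10 kb apart and 5.72% in pairs over 10 kb apart (3.80 to 8.21%). Per Mb of sequence within 5 kb of the ends, gap included up to 10 kb, these were 1.81, 1.30 and 2.86 borders. The contrast between the gap classes was not tested, and both lists come from the same map.

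The 16 borders had 17 combinations of a border and a close loop end, from 15 anchors and 15 loops. In 6 of the 17 the anchor midpoint lay in the gap, in 3 in the left domain and in 8 in the right domain. In 5 of them the loop lay on the left of the border, in 6 on the right and in 6 across it. No border had close loop ends of more than one of these kinds. The nearest ends were at the 3 borders at 2L 15037000, 2R 11585000 and 3L 12409000, where the anchor midpoint coincided with the start of the right domain. At 2R 11708000 the midpoint of the anchor 11706001 to 11710001 lay at the end of the left domain, within the 1 bp named above, and at 2R 3270000 that of the anchor 3269001 to 3270501 was 0.249 kb from it.

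A single loop joined 2 sharp borders on 2R. Its anchors, 11585001 to 11587001 and 11706001 to 11710001, lay at the borders at 11585000 and 11708000, 122 kb apart, and no sharp border lay between them. The first border had an 18 kb domain on its left and an 81 kb domain on its right, and the second an 18 kb domain on its left and a 25 kb domain on its right.

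Some loops spanned a domain that ends at a sharp border. Taking loops that reach from one end of a domain to the other with at most 5 kb to spare at each anchor, 5 of 12 were on domains with 1 sharp border, 7 on domains with none and 0 on domains with 2. Of all 2114 domains with a neighbour on each side, 45.4% had 1 sharp border, 40.2% none and 14.5% 2. The 5 domains with 1 sharp border were 14 to 50 kb long. On 2L they ran from 3094001 to 3108000 and from 15009001 to 15037000. On 3L one covered 2171001 to 2192000 and another 12411001 to 12461000, and on 3R the domain started at 26103001 and ended at 26134000. The loop on the 21 kb domain on 3L had the same span as the domain, 21 kb.

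A whole loop lay in a facing domain at a smaller share of sharp borders than of wider pairs. This was so at 23 sharp borders (2.93%), against 5.28% over all 2120 pairs. The share was 6.26% of pairs 2.5 to 10 kb apart and 7.42% of pairs over 10 kb apart. The facing domains were also shorter at sharp borders, with median sides of 12 and 29.5 kb against 15.5 and 48 kb in wider pairs. The part of length in these shares was not tested. At no sharp border did both sides hold a loop (0 of 786, exact upper limit 0.468%), and this was so at 3 of 1334 wider pairs. Per 10 Mb of domain, there were 2.67 whole loops in domains with 2 sharp borders (2 loops, exact Poisson interval 0.323 to 9.63), 8.58 with 1 (29 loops, 5.75 to 12.3) and 8.30 with none (44 loops, 6.03 to 11.1). Among domains over 50 kb, 2 of 25 with 2 sharp borders held a loop (8%), 17 of 157 with 1 (10.8%) and 33 of 272 with none (12.1%).

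**Figure D5:**
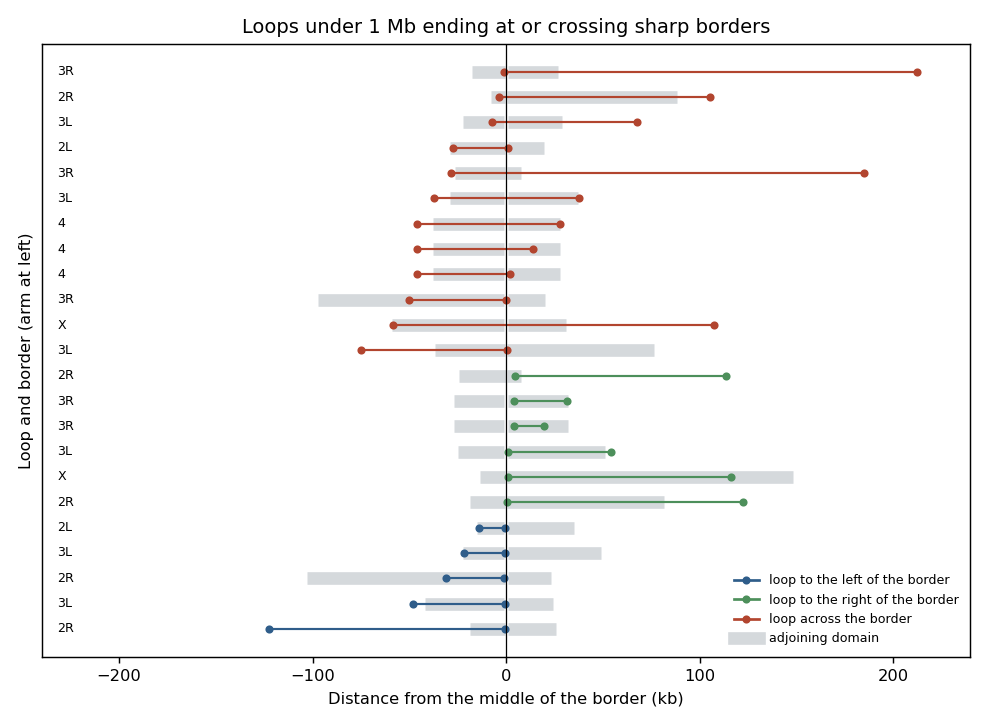
Each row is 1 loop under 1 Mb at 1 sharp border, with the arm at the left. The horizontal axis is the distance from the middle of the border in kb, grey bars are the 2 adjoining domains, and coloured lines join the anchor midpoints of loops to the left (5), to the right (6) and across the border (12). All loops on one side have an anchor within 5 kb of 0, and several of those across also end there.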

How the data were processed

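Hi-C was made from 2 samples of Kc167 cells, per the labels. Per the submitters' processing notes, the authors used BWA and Juicer with dm3 (BDGP5). Callers, versions and settings were not given in the sources used here. Positions in bp are given in both deposited lists, and the domain list adds, per the file headers, 5 score values per domain from the authors. The loops are positions only. Domains were sorted by arm and start, and the gap is the next start minus this end as listed. Domain starts are printed as the listed start plus 1, and domain ends and loop anchors as listed. Anchor ends lie 1 bp above the domain grid, so distances between the lists are good to about 1 bp. Arms run from 0 to the largest listed position. Touching or overlapping anchors were merged. Values were computed with Python 3.11.15, pandas 2.3.3, numpy 2.4.6 and scipy 1.17.1, and the code was tested on simulated domains and loops with planted borders, chains and crossings. No test was run, since neither list has values by sample and the borders were chosen from the list described.

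The borders, lists and rules were chosen with earlier results of these data known. Named were the 5 chains with most domains, with ties settled by covered length, and the 5 borders extreme in shorter side, lower score, length fold and score difference. Also named were those crossed by at least 2 loops, and the 5 nearest an anchor (set out for exact borders, of which there were none, so taken over all sharp borders). The other named regions were chosen after their values were seen. The gene table at hand is of Release 6 and was not used.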

Additional observations from a re-analysis of the deposited data

How the results depend on the processing

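Leaving out a replicate could not be tried. No paired analysis was possible because neither list has values by sample. Of 49 alternative values, 34 stayed within 1.5 times a count or ratio, or within the interval of a share or median, and 15 did not. The 34 include every alternative of the share of borders with a gap of 0, which stayed at 0. With no listed gap of 0, leaving out arms or domains could not change that share, so these values say nothing about stability. The 1.5-fold and 3-fold limits on length are among the 15, and they change the measure itself. The number of borders was 0 at a gap of 0 bp, 406 up to 1000 bp and 1298 up to 5000 bp. These counts are of listed gaps. The number was 609 with the limit at 1 coarser position step. This alternative, those of the smallest listed gap and the shift of anchors by 1 bp were added after seeing the data. At 0 bp there were 0 chains and 0% of domains in chains, and the share of domains in chains was 34.1% up to 1000 bp and 84.1% up to 5000 bp, where the longest chain grew from 7 to 13 domains. Lengths within 2-fold were found at 42.9% of borders up to 1000 bp, and at 36.5% among the upper 50% of domains by corner score, where wider pairs had 38.6%. Lengths were within 1.5-fold at 29.4% and within 3-fold at 66.3%. Without domains on the 5 kb step the share within 2-fold was 48.7%, against 48.6% in wider pairs, so sharp and wider pairs were then nearly alike. The share of 500 bp gaps was 16.7% in the upper 50% by score. The centromere end had 0.538 times the share of sharp borders of the other end, and 0.253 times when counted per Mb, since it also held fewer domains. With all loops, 214 borders were crossed, by 16 loops. Depth could not be assessed.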
